A study of Homo sapiens with 12 samples.

Results

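The genes examined here encode the machinery of DNA replication and of the cell division cycle: the helicase loaded at replication origins, the polymerases and their sliding clamp, the enzymes that supply deoxynucleotides, and the cyclins, kinases and checkpoint proteins that carry a cell through S phase and mitosis. Of 55 such genes, 46 had at least 1 accessible region within 1 kb of an annotated transcription start (GENCODE v44, hg38), and 65 of the 30170 regions in the deposited count table were of this kind. For each gene the raw counts of its regions were summed in each library, and the sum is called the gene start below.

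The libraries came from HCT116, an established human colorectal carcinoma line, and were made by ATAC-seq, in which the transposase Tn5 inserts sequencing adapters into accessible DNA of isolated nuclei. Empty vector (EV) cells were compared with cells carrying EHF, an ETS-family transcription factor, with cells carrying CDX1, a caudal homeobox transcription factor of the intestinal epithelium, and with cells carrying both (EHF+CDX1). EHF was introduced as a plasmid followed by selection of G418-resistant clones, CDX1 by a retrovirus that also encodes GFP followed by sorting, and the EHF+CDX1 line was made by adding EHF to the CDX1 line. Each of the 4 lines is represented by 3 libraries, all lines were grown in the same serum-containing medium, and no time course or drug was part of the comparison. Nothing in the labels says that the 3 libraries of a line are separate cultures, so the p-values measure the spread between these libraries, which may be technical. Each line is also the product of its own selection or sort, which cannot be told apart from the factor it carries.

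Epithelial cells of the intestine stop dividing as they mature, and differentiation is commonly accompanied by lower transcription of the genes of the cell cycle. In cycling cells these genes are transcribed in waves. Genes needed for S phase are driven by E2F factors bound close to their starts and are held down by RB-family proteins, whereas genes needed in G2 and mitosis are controlled through CHR elements, bound by MuvB complexes, and CCAAT boxes, bound by NF-Y. The starts of such genes are usually nucleosome-poor whether or not the gene is being transcribed, so ATAC-seq counts there measure openness and not transcript levels. The question put to the data is whether these starts changed when the differentiation factors were present.

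The sequences below show 6 stretches that overlap the counted regions, read from hg38 on the strand of the gene, 5′ to 3′. Capitals mark E2F words (TTTCGCGC, TTTGGCGC, TTTCCCGC or TTTGCCGC), CHR words (TTTGAA or TTCGAA) and CCAAT, each on either strand. E2F1 and MCM3 are shown for their E2F words, CCNB1 and MKI67 as mitotic genes, and POLE as the replication gene fitted furthest below EV in the line with both factors. CDC25C is shown because this was the only region that edgeR called in any comparison without the replicate number in the fit.
E2F1, 250 bases before the start, chr20:33686386-33686635, minus strand: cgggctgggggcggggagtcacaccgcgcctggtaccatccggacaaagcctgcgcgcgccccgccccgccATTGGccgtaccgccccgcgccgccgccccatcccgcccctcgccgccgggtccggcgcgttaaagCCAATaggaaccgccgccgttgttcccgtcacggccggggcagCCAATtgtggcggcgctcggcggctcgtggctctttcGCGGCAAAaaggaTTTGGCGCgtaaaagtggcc
MCM3, 200 bases of its region, chr6:52284882-52285081, minus strand: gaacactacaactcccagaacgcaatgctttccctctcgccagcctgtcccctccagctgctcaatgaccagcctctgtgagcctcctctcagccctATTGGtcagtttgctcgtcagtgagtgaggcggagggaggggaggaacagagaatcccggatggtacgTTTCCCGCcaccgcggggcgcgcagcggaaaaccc
CCNB1, 177 bases of its region, chr5:69166958-69167134, plus strand: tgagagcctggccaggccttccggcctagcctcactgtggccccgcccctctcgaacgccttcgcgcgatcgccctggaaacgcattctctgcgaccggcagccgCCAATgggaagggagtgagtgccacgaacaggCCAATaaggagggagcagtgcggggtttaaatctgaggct
MKI67, 250 bases before the start, chr10:128126424-128126673, minus strand: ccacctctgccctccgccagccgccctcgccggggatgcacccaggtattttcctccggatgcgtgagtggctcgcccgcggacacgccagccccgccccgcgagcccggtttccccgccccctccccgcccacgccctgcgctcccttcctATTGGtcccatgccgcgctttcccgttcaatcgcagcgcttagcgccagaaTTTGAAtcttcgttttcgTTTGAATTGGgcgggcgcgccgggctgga
POLE, 171 bases of its region, chr12:132687377-132687547, minus strand: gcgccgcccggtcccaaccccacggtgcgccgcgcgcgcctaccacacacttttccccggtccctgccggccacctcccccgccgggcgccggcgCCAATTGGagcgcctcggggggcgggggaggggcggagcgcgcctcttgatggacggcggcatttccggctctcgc
CDC25C, 94 bases of a region within an intron, chr5:138337417-138337510, minus strand: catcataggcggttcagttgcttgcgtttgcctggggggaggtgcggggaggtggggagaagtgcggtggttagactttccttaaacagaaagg
The E2F1 stretch held 2 E2F words and 3 CCAAT words, and both E2F words lay between the deposited region and the start, outside the region that was counted. In MKI67 the second CHR word overlapped a CCAAT word read on the other strand, and in POLE a CCAAT word on each strand overlapped. The printed stretch of CDC25C held none of the 3 kinds of word.

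The member genes were open more often than other genes. A region lay near the start of 83.6% of the 55 members, against 48.1% of 20033 protein-coding genes. The regions were 150 to 350 bp long with a median of 198 bp. For 8 of them, in CDC25C, CDK6, GINS1, PCNA and RRM2, the centre lay over 1.2 kb from the canonical start, near another annotated start. The centres of the rest lay at a median of −99 bp from the canonical start, on the upstream side. By annotation 42 lay over an exon, 7 in an intron and 16 outside the gene body, and 25 covered the canonical start itself. Of the 46 genes, 34 had 1 region and 12 had 2 or more. In 16 genes a region was also within 1 kb of the start of another protein-coding gene, so that its counts cannot be assigned to either gene. These were AURKA, CCNE2, CDC25C, CDC45, CDK2, GINS1, MCM2, MCM4, MCM7, ORC1, ORC6, PCNA, POLA2, POLE, PRIM1 and TK1. BIRC5, BUB1B, CCND1, CCNE1, CDT1, E2F2, FOXM1, GINS3 and MYBL2 had no region within 1 kb and are not measured. The nearest regions were 1932 bp from CCND1, the cyclin of early G1, and 2790 bp from E2F2.

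Library totals ran from 567366 to 2443334 counts, but 14.5% to 73.8% of these fell in 192 regions resembling mitochondrial DNA, and up to 78.4% fell on 11 regions over EHF or CDX1 exons in the lines carrying those genes. The remaining counts ran from 148300 to 912672, and EHF+CDX1 replicate 2 was the deepest, with the next library at 458392. The member genes received 352 to 2186 counts in all per library, and a member had a median of 6 to 35.5 counts depending on the library. Only 2 of 552 values were 0. Within each line replicate 2 had the most counts outside the mitochondria-like and transgene regions, and the replicate 2 libraries also stood apart in the share of gene-start counts on chromosome 17, which was 3.25% to 3.96% in these 4 and 4.38% to 5.00% in the other 8. Results without replicate 2 of every line are given beside the values they touch. Levels are given as CPM, the counts scaled to a common library total, after TMM scaling, which sets the bulk of gene starts equal between libraries. The epithelial markers EPCAM, KRT8, KRT18 and CDX2 had regions with counts in every line. PTPRC, CD3E, PECAM1 and PDGFRB, which mark blood, endothelial and stromal cells, had no region near their starts, and neither did the epithelial gene CDH1, whereas the fibroblast collagen gene COL1A1 had 34 to 56 counts per line.

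The mean level of a member over the 12 libraries ran from 4.09 to 30.4 CPM with a median of 9.93. Per kb of region, 31 of the 46 lay above the median of all gene starts, and the median member stood at percentile 62.3. The highest levels per kb were those of MAD2L1, a spindle checkpoint protein, at 78.6 CPM per kb, MCM3, a subunit of the replicative helicase, at 69.3, AURKA, a mitotic kinase, at 66.9, and CCNA2, the S-phase cyclin, at 57.3. CDK2, which drives entry into S phase, ORC1, which marks origins, and AURKB, the kinase of the chromosome passenger complex, were at 27.3 CPM per kb each. The median member was at 40.1 CPM per kb.

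The summed signal over all 46 gene starts differed between the 4 lines by no more than the libraries of a line did. It was 542 ± 32.7 CPM in EV (SD, n = 3 here and below), 582 ± 48.6 CPM in EHF, 572 ± 44.6 CPM in CDX1 and 550 ± 34.8 CPM in EHF+CDX1. As a share of all counts at gene starts it was 0.504 ± 0.042% for the EV line and 0.555 ± 0.047% for EHF. The shares for CDX1 and for EHF+CDX1 were 0.541 ± 0.033% and 0.524 ± 0.036%. In these bulk samples, fewer cells with an open site and less signal per cell cannot be told apart.

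**Figure D1:**
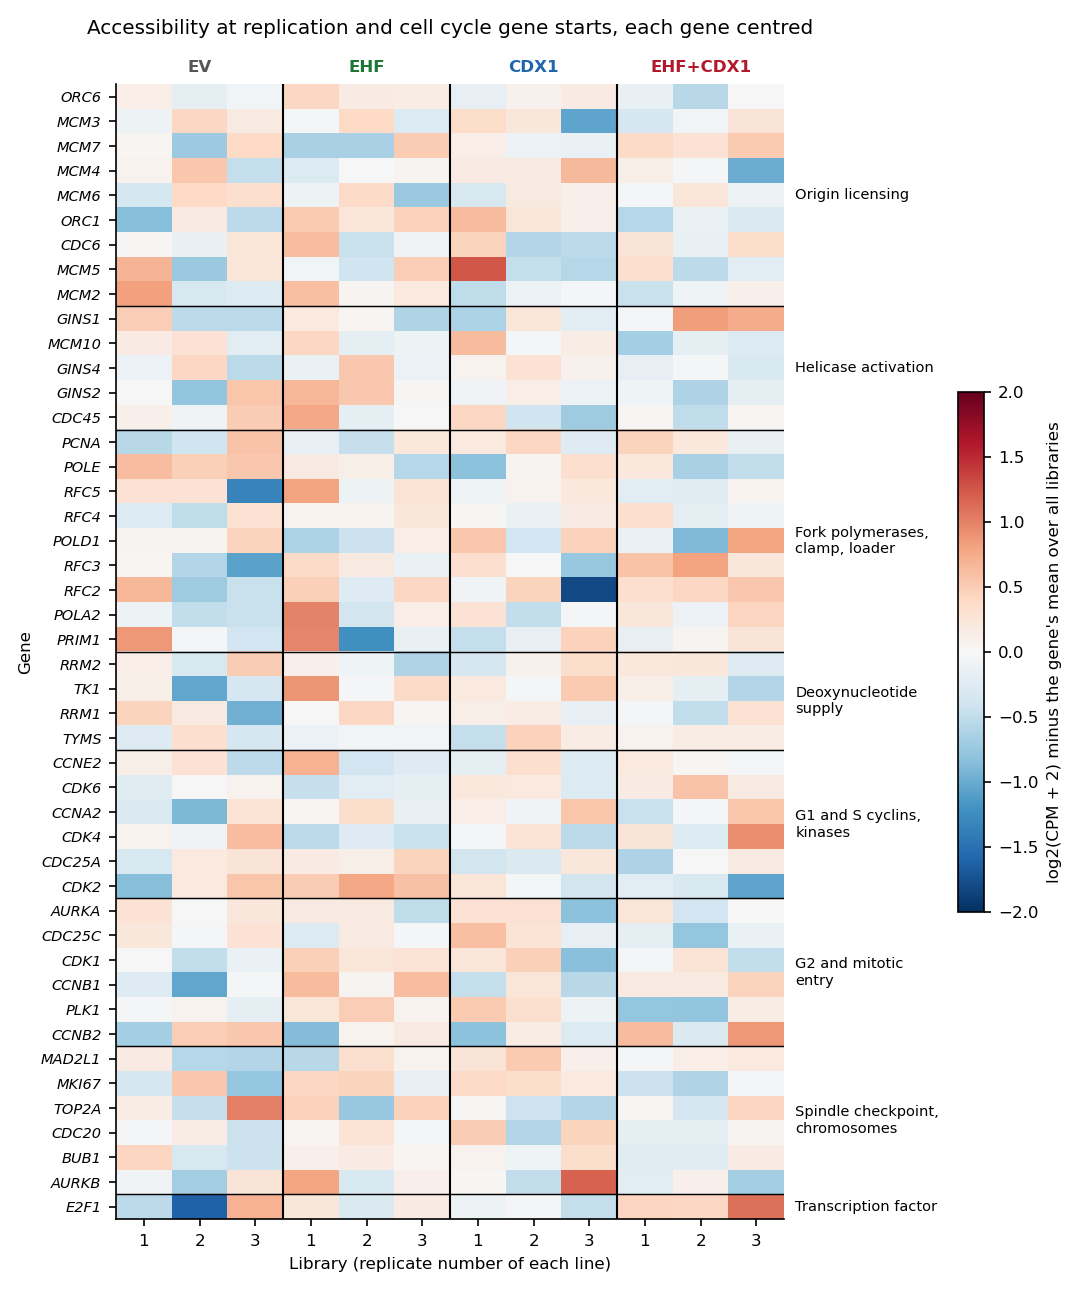
Level of each of the 46 member gene starts (vertical, grouped by role) in each of the 12 libraries (horizontal, grouped by line), as log2(CPM + 2) minus the mean of that gene over the libraries. No line shows a block of rows that is uniformly higher or lower, and single libraries of 1 line differ among themselves.

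No member gene start changed past the threshold in any comparison. With edgeR's quasi-likelihood test and Benjamini-Hochberg adjustment over 13890 gene starts, 0 of 46 members passed an adjusted p of 0.05 ("called" below) in EHF+CDX1 against EV, where 2.95% of all gene starts were called. The lowest adjusted p among the members was 0.150. The same test called 0 of 46 in EHF against EV and in CDX1 against EV, where 0.0% of all gene starts were called. It also called 0 of 46 in EHF+CDX1 against EHF, with 2.02% of all gene starts called, in EHF+CDX1 against CDX1, with 1.75%, and in the interaction of the 2 factors, with 0.072%. The 3 comparisons that involve EV share its libraries, and those that involve EHF+CDX1 share that line's. Without replicate 2 of every line the count of called members was also 0 in each comparison. DESeq2 and limma-trend also called no member gene start. The paper used voom with quantile normalisation for its region counts. Applied here to gene starts, that method called PLK1 and CDK2 lower in EHF+CDX1 against EHF.

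At an unadjusted p of 0.05 in EHF+CDX1 against EV, edgeR had 4 of 46 members higher (CCNB1, E2F1, GINS1 and RFC3), where 7.78% of all gene starts were, and 1 lower (POLE), where 8.23% were. In EHF against EV, CCNB1 and TK1 passed the unadjusted level as higher, against 2.12% of gene starts, and 0 as lower, against 2.79%. In CDX1 against EV it was MAD2L1 alone, higher, against 1.68%, and 0 as lower, against 1.81%. In EHF+CDX1 against EHF 4 were higher, against 8.11%, and 7 lower (CDK2, GINS2, MKI67, ORC1, ORC6, PLK1 and TK1), against 6.67%. In EHF+CDX1 against CDX1 only GINS1 was higher, against 7.85%, and CDC25C, MCM10, MKI67 and PLK1 were lower, against 7.59%. For the interaction 0 were higher, against 4.37%, and MKI67, ORC1, PLK1 and TK1 were lower, against 3.87%.

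The members' median log2 fold change was −0.10 in EHF+CDX1 against EV, beside 0.04 over all gene starts. It was 0.14 beside 0.00 in EHF against EV and 0.13 beside −0.01 in CDX1 against EV. Without replicate 2 of every line the members' median minus that of all gene starts was 0.080 in EHF+CDX1 against EV, 0.109 in EHF against EV and −0.0086 in CDX1 against EV, so the sign in EHF+CDX1 and the value in CDX1 rest on those libraries. Fitted values were higher for 21 and lower for 25 of the 46 in EHF+CDX1 against EV, higher for 28 and lower for 18 in EHF, and higher for 30 and lower for 16 in CDX1. The precision limits what can be read from these numbers. The median standard error of a member in EHF+CDX1 against EV was 0.43, the 95% interval lay within a 2-fold change in either direction for 13 of 46 members, and for the other 33 it included such a change. In EHF against EV 18 and in CDX1 against EV 16 members had an interval within 2-fold. The EV and EHF+CDX1 libraries did not overlap for CCNB1, CDK6 and RFC3, all higher, where 9.91% of all gene starts behaved so, nor for CDC25C and POLE, both lower, where 8.74% did. For the other pairs of lines this share was not counted, so separations named below for those pairs have no background beside them.

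**Figure D2:**
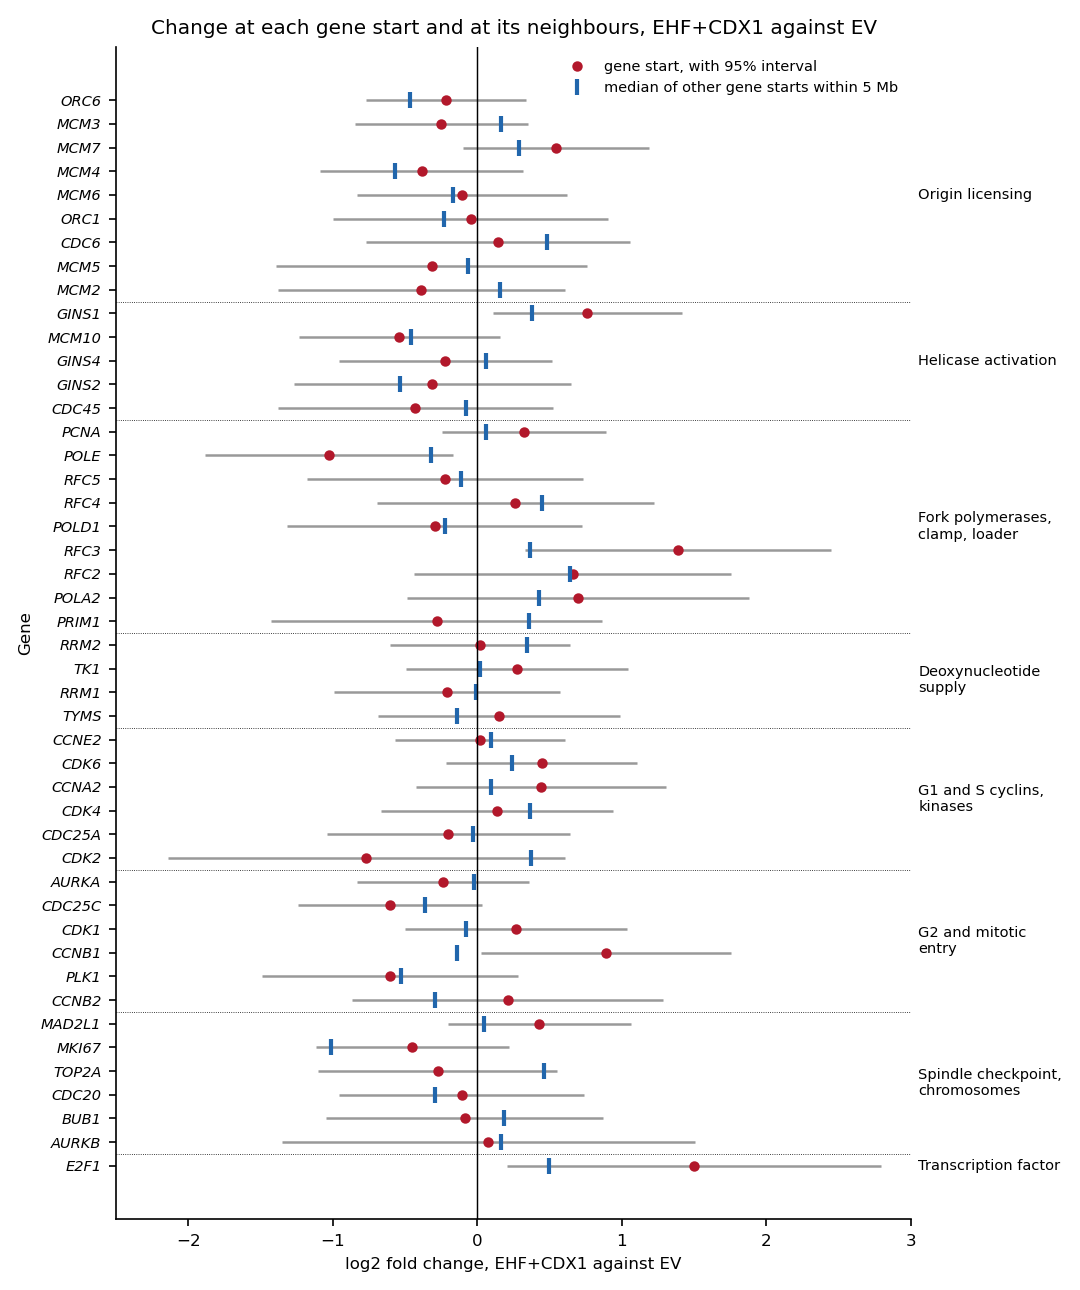
Log2 fold change of each member gene start in EHF+CDX1 against EV (horizontal) with its 95% interval, ordered by role, and as a blue tick the median of the other gene starts within 5 Mb. No change passed an adjusted p of 0.05, and the largest fitted changes were E2F1 at 1.50, RFC3 at 1.39 and POLE at −1.03.

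The origin licensing genes, which place the inactive MCM helicase on DNA in G1, summed over 9 genes to 130 ± 2.41 CPM in EV, 134 ± 3.70 CPM in EHF, 132 ± 14.2 CPM in CDX1 and 123 ± 7.10 CPM in EHF+CDX1. In EHF+CDX1 against EV none was called, 2 were fitted higher and 7 lower, and the median log2 fold change was −0.22. ORC6, the small subunit of the origin recognition complex, had the highest level. It stood at 32.9, 25.6 and 28.5 CPM in the EV libraries, 40.6, 33.6 and 33.3 CPM in EHF, 26.3, 31.6 and 33.8 CPM in CDX1, and 26.8, 19.7 and 30.0 CPM in EHF+CDX1. The EV and EHF+CDX1 values overlapped, and the log2 fold change was −0.22 ± 0.28 (SE; adjusted p = 0.768). MCM7, a helicase subunit, was at 19.3, 10.6 and 25.4 CPM in EV, 11.2, 11.2 and 27.6 CPM in EHF, 20.6, 17.1 and 16.9 CPM in CDX1, and 25.1, 23.5 and 27.7 CPM in EHF+CDX1. Its EHF+CDX1 libraries were close together whereas those of EV and EHF were spread, and the log2 fold change was 0.54 ± 0.33 (adjusted p = 0.414). Its regions are shared with AP4M1, a gene of vesicle transport that starts beside it. MCM4, another helicase subunit, was at 14.7, 21.1 and 9.51 CPM in EV, 11.2, 13.8 and 14.6 CPM in EHF, 15.9, 16.1 and 22.9 CPM in CDX1, and 15.4, 13.7 and 5.99 CPM in EHF+CDX1. These ranges overlapped as well (log2 fold change −0.39 ± 0.35, adjusted p = 0.645). The other 6 genes of the group had fitted log2 fold changes between −0.39 (MCM2) and 0.14 (CDC6, the helicase loader).

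The helicase activation genes encode CDC45, the GINS proteins and MCM10, which turn the loaded helicase into a moving fork. Their 5 gene starts summed to 60.9 ± 7.27 CPM in EV, 66.3 ± 14.2 CPM in EHF, 62.0 ± 5.60 CPM in CDX1 and 61.0 ± 8.86 CPM in EHF+CDX1, with none called in EHF+CDX1 against EV and a median change there of −0.31 on the log2 scale (1 fitted higher, 4 lower). GINS1, a subunit of the GINS complex, was the one fitted higher. Its values were 24.9, 11.3 and 11.1 CPM in EV, 19.9, 17.7 and 10.6 CPM in EHF, 10.3, 20.6 and 14.5 CPM in CDX1, and 16.6, 32.2 and 30.0 CPM in EHF+CDX1. EV replicate 1 lay above EHF+CDX1 replicate 1, so the groups overlapped, and the log2 fold change was 0.76 ± 0.33 (95% interval 0.11 to 1.42, adjusted p = 0.218). Without replicate 1 of every line the log2 fold change of GINS1 was 1.47 and its adjusted p 0.047, the only fit of this comparison in which a member gene start was called. The GINS1 regions centred at −17232 and −16736 bp from its canonical start are shared with ABHD12. They held 21 and 85 of its 136 counts in EHF+CDX1 replicate 2, and the region over the canonical start held 30. MCM10 was at 17.0, 18.8 and 12.7 CPM in EV, 20.7, 12.9 and 13.8 CPM in EHF, 24.4, 14.5 and 16.9 CPM in CDX1, and 8.56, 13.0 and 11.98 CPM in EHF+CDX1. Only the lowest EV library fell within the EHF+CDX1 range (log2 fold change −0.54 ± 0.35, adjusted p = 0.469). CDC45, GINS2 and GINS4 lay between −0.43 and −0.22.

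The fork genes were the group with the widest spread of changes. Over 9 gene starts they summed to 79.9 ± 11.4 CPM in EV, 82.8 ± 18.4 CPM in EHF, 82.1 ± 5.50 CPM in CDX1 and 88.5 ± 8.39 CPM in EHF+CDX1, with none called in EHF+CDX1 against EV and a median change there of 0.26 on the log2 scale (5 fitted higher, 4 lower). PCNA, the sliding clamp, was at 19.3, 21.9 and 44.4 CPM in EV, 25.9, 20.7 and 34.1 CPM in EHF, 33.8, 39.6 and 24.1 CPM in CDX1, and 40.5, 34.1 and 26.2 CPM in EHF+CDX1. All 4 lines overlapped, and the log2 fold change was 0.32 ± 0.29 (adjusted p = 0.632). The regions of PCNA centred at −6700 and −6942 bp from its canonical start are shared with CDS2. The one at −6700 bp was at 22.6 CPM in EV replicate 3. RFC3 encodes a subunit of the clamp loader and had the smallest p of the 46. It had 5, 4 and 1 counts in EV (5.67, 3.02 and 1.59 CPM), 9, 15 and 6 counts in EHF (7.77, 6.47 and 4.88 CPM), 8, 11 and 2 counts in CDX1 (7.51, 5.52 and 2.41 CPM), and 16, 47 and 9 counts in EHF+CDX1 (9.13, 11.1 and 6.74 CPM). All EHF+CDX1 libraries lay above all EV libraries but overlapped those of EHF and CDX1, and the log2 fold change was 1.39 ± 0.53 (95% interval 0.33 to 2.45, adjusted p = 0.150). POLE, the catalytic subunit of the leading-strand polymerase, was the member fitted furthest below EV. It was at 13.6, 12.1 and 12.7 CPM in EV, 9.50, 9.06 and 4.88 CPM in EHF, 3.75, 8.53 and 10.9 CPM in CDX1, and 9.70, 4.50 and 5.24 CPM in EHF+CDX1. Every library with a factor lay below the 3 EV libraries, which were close together but held only 12, 16 and 8 counts. How many of all gene starts separated so was counted for EHF+CDX1 against EV (8.74%) and not for the lines with 1 factor. The log2 fold change in EHF+CDX1 against EV was −1.03 ± 0.43 (95% interval −1.88 to −0.17, adjusted p = 0.202). The other 6 genes ran from −0.30 (POLD1) to 0.70 (POLA2).

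The 4 gene starts of the enzymes that supply deoxynucleotides summed to 50.9 ± 7.39 CPM in EV, 57.7 ± 8.75 CPM in EHF, 57.6 ± 8.26 CPM in CDX1 and 52.3 ± 4.92 CPM in EHF+CDX1, none was called and the median log2 fold change in EHF+CDX1 against EV was 0.08. RRM2, the regulated subunit of ribonucleotide reductase, was at 20.4, 14.3 and 27.0 CPM in EV, 19.9, 17.3 and 11.4 CPM in EHF, 14.1, 19.6 and 24.1 CPM in CDX1, and 21.7, 21.8 and 15.0 CPM in EHF+CDX1. The log2 fold change of 0.02 ± 0.31 had an interval of −0.60 to 0.64 (adjusted p = 0.987), so a 2-fold change in either direction lay outside it. RRM1, the large subunit, was at 15.9, 12.8 and 4.76 CPM in EV, 11.2, 15.5 and 11.4 CPM in EHF, 12.2, 12.5 and 9.66 CPM in CDX1, and 10.8, 7.35 and 14.2 CPM in EHF+CDX1 (log2 fold change −0.21 ± 0.39, adjusted p = 0.854). TK1, the thymidine kinase of S phase, was at 15.9, 6.03 and 11.1 CPM in EV, 28.5, 14.2 and 19.5 CPM in EHF, 16.9, 14.0 and 21.7 CPM in CDX1, and 16.0, 12.6 and 8.99 CPM in EHF+CDX1. It was highest in EHF and did not separate EHF+CDX1 from EV (0.27 ± 0.39, adjusted p = 0.795).

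The cyclins, kinases and phosphatase of G1 and S phase summed over 6 gene starts to 71.8 ± 6.63 CPM in EV, 73.1 ± 8.51 CPM in EHF, 72.3 ± 7.14 CPM in CDX1 and 78.5 ± 8.32 CPM in EHF+CDX1, with none called in EHF+CDX1 against EV and a median change there of 0.08 on the log2 scale. CCNE2, an E-type cyclin, was at 26.1, 29.4 and 15.9 CPM in EV, 39.7, 17.7 and 19.5 CPM in EHF, 20.6, 30.6 and 19.3 CPM in CDX1, and 27.4, 24.4 and 23.2 CPM in EHF+CDX1 (log2 fold change 0.02 ± 0.30, adjusted p = 0.987). CDK6, a partner of the D-type cyclins, was at 12.5, 15.1 and 15.9 CPM in EV, 10.4, 12.5 and 13.0 CPM in EHF, 17.8, 17.6 and 12.1 CPM in CDX1, and 17.1, 23.2 and 17.2 CPM in EHF+CDX1. Its EHF+CDX1 libraries lay above those of EV and EHF by a small margin (0.44 ± 0.33, adjusted p = 0.556). CDK2 was among the lowest members, at 1.13, 4.52 and 6.34 CPM in EV, 6.05, 7.77 and 6.50 CPM in EHF, 4.69, 3.51 and 2.41 CPM in CDX1, and 2.85, 2.61 and 0.749 CPM in EHF+CDX1. The EV and EHF+CDX1 libraries overlapped, and the log2 fold change of −0.77 ± 0.69 carried an interval of −2.14 to 0.60 (adjusted p = 0.635).

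The genes of G2 and mitotic entry summed over 6 gene starts to 80.3 ± 8.45 CPM in EV, 87.5 ± 5.65 CPM in EHF, 82.9 ± 25.9 CPM in CDX1 and 75.3 ± 11.3 CPM in EHF+CDX1, with none called in EHF+CDX1 against EV and a median change there of −0.01 on the log2 scale (3 fitted higher, 3 lower). AURKA, the kinase of the spindle poles, was at 28.4, 22.6 and 27.0 CPM in EV, 25.9, 25.9 and 15.4 CPM in EHF, 28.1, 28.6 and 12.1 CPM in CDX1, and 27.4, 17.1 and 22.5 CPM in EHF+CDX1 (log2 fold change −0.24 ± 0.30, adjusted p = 0.764). CCNB1, the mitotic cyclin, was at 7.94, 3.77 and 9.51 CPM in EV, 16.4, 10.4 and 16.3 CPM in EHF, 6.57, 12.04 and 6.04 CPM in CDX1, and 11.4, 11.4 and 14.2 CPM in EHF+CDX1. Both lines carrying EHF lay above all EV libraries, and CDX1 overlapped them. The share of all gene starts separated so was counted for EHF+CDX1 against EV (9.91%) and not for EHF against EV. The log2 fold change was 0.89 ± 0.44 in EHF+CDX1 against EV (95% interval 0.02 to 1.76, adjusted p = 0.294). CDC25C, the phosphatase that activates the mitotic kinase, was at 22.7, 18.8 and 23.8 CPM in EV, 15.5, 22.0 and 18.7 CPM in EHF, 30.0, 23.6 and 16.9 CPM in CDX1, and 16.6, 10.4 and 17.2 CPM in EHF+CDX1. The EHF+CDX1 libraries lay below those of EV (−0.60 ± 0.32, adjusted p = 0.343).

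The 6 genes of the spindle checkpoint, the chromosome passengers and mitotic chromosomes summed to 64.6 ± 5.15 CPM in EV, 75.4 ± 3.33 CPM in EHF, 79.8 ± 5.27 CPM in CDX1 and 63.7 ± 9.08 CPM in EHF+CDX1. None was called, and the median log2 fold change in EHF+CDX1 against EV was −0.10 (2 fitted higher, 4 lower). The sums of the libraries ran from 60.3 to 70.3 CPM in EV, 71.5 to 77.7 CPM in EHF and 73.7 to 83.5 CPM in CDX1. In EHF and in CDX1 against EV 5 of the 6 were fitted higher. This group was picked from 8 after the values were seen, and the separation was not tested. MAD2L1 was at 22.7, 12.8 and 12.7 CPM in EV, 13.0, 25.5 and 21.1 CPM in EHF, 24.4, 29.6 and 21.7 CPM in CDX1, and 19.4, 22.0 and 23.2 CPM in EHF+CDX1 (log2 fold change 0.43 ± 0.32, adjusted p = 0.553). EV replicate 1 stood with the lines carrying a factor while the other two EV libraries were lower than all of those. MKI67, the proliferation marker Ki-67 that coats mitotic chromosomes, was at 13.6, 26.4 and 9.51 CPM in EV, 24.2, 24.6 and 15.4 CPM in EHF, 23.5, 23.1 and 20.5 CPM in CDX1, and 12.6, 10.9 and 17.2 CPM in EHF+CDX1. EV spanned nearly the whole range, and the log2 fold change of −0.45 ± 0.34 (adjusted p = 0.556) was 0.30 without replicate 2 of every line. E2F1, the activator of S-phase genes, was the only transcription factor of the list with a region. It had 2, 0 and 5 counts in EV (2.27, 0 and 7.93 CPM), 6, 7 and 6 counts in EHF (5.18, 3.02 and 4.88 CPM), 4, 8 and 2 counts in CDX1 (3.75, 4.01 and 2.41 CPM), and 11, 26 and 15 counts in EHF+CDX1 (6.28, 6.16 and 11.2 CPM). Its region lies upstream of the start and holds 1 of the CCAAT words printed above. EV replicate 3 lay within the EHF+CDX1 range, and the log2 fold change was 1.50 ± 0.65 (95% interval 0.21 to 2.80, adjusted p = 0.219).

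Tested as single regions without the replicate number in the fit, 1 of the 65 was called in 1 comparison. The CDC25C region at chr5:138337417-138337567, in an intron with its centre upstream of the canonical start (−5688 bp), was lower in EHF+CDX1 than in EHF by 2.25 on the log2 scale (−2.25 ± 0.64, 95% interval −3.52 to −0.99, adjusted p = 0.024 by edgeR over 30154 regions), where 4.35% of all regions were called. It had 6, 8 and 1 counts in EV (6.59, 5.53 and 1.50 CPM), 7, 19 and 6 counts in EHF (6.40, 7.72 and 5.48 CPM), 10, 8 and 4 counts in CDX1 (9.62, 3.86 and 4.73 CPM), and 3, 3 and 3 counts in EHF+CDX1 (1.78, 0.677 and 2.49 CPM). The EHF+CDX1 libraries lay below all of EHF and CDX1 and overlapped the lowest EV library. Against EV the change was −1.79 ± 0.71 (adjusted p = 0.144, 2.57% of regions called) and against CDX1 −2.06 ± 0.67 (adjusted p = 0.071, 2.6% called). In EHF against EV 0 member regions were called, with 0.00995% of all regions called, and in CDX1 against EV and the interaction also 0, with 0.0% and 0.123%. The call against EHF rests on few counts. It was absent without EHF replicate 1, EHF replicate 2 or EHF+CDX1 replicate 2, where 0 member regions were called. The same held without replicate 1 or 2 of every line, and with DESeq2, limma-trend, the filterByExpr filter or scaling by library size alone. Other fits called more. Voom with quantile normalisation, the paper's method for regions, called 6 against EHF, in CDC25C, CDK2, MCM7, MKI67, ORC1 and PLK1. With the replicate number as a block, 3 were called against EHF, in CDC25C, MCM7 and ORC6, and 1 against EV, in MCM7.

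The region over the CDC25C start itself, chr5:138331760-138332046, was at 15.4, 11.7 and 21.0 CPM in EV, 10.1, 13.0 and 15.5 CPM in EHF, 21.2, 18.8 and 11.8 CPM in CDX1, and 15.4, 9.25 and 16.6 CPM in EHF+CDX1. Its log2 fold change against EHF was 0.04 ± 0.38, so in that comparison the CDC25C difference lay in the intronic region and not at the canonical start. Both regions are also within 1 kb of a FAM53C start. In MCM7 and GINS1, named here after their values were seen, regions of the same gene also had unlike fitted values. The region at chr7:100100636-100100895, 632 bp into the gene, was at 6.59, 3.45 and 7.52 CPM in EV, 0.915, 4.06 and 13.7 CPM in EHF, 9.62, 5.79 and 7.10 CPM in CDX1, and 13.7, 12.9 and 15.8 CPM in EHF+CDX1, with a log2 fold change of 1.34 ± 0.50 against EV (adjusted p = 0.116). The region upstream of the start (−541 bp) had −0.87 ± 0.57 (adjusted p = 0.408). For GINS1 the larger changes were far from the gene's canonical start: the region upstream (−16736 bp), near ABHD12, had a log2 fold change of 1.04 ± 0.44 (adjusted p = 0.179), and the region over the start 0.39 ± 0.57 (adjusted p = 0.746).

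**Figure D3:**
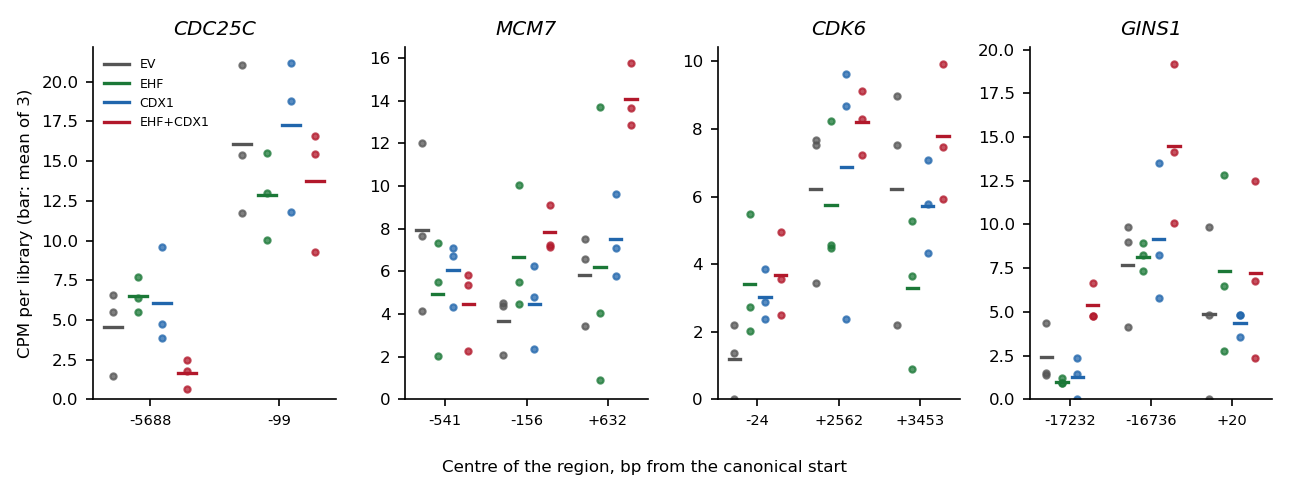
CPM of each region (vertical), with regions placed in order of the distance of their centre from the canonical start in bp (horizontal, evenly spaced and not to scale), for CDC25C, MCM7, CDK6 and GINS1, with points for libraries and a bar for the mean of each line. In CDC25C the EHF+CDX1 libraries are low at the distal intronic region and mixed with the other lines at the start itself.

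In EHF+CDX1 the median change of gene starts differed between chromosomes. This comparison was added after the values were seen. The median log2 fold change of the other gene starts of a chromosome ran from −0.44 (chromosome 10) to 0.47 (chromosome 13) in EHF+CDX1 against EV, with an SD over chromosomes of 0.23, but only from −0.07 to 0.13 in EHF against EV (SD 0.066) and from −0.08 to 0.07 in CDX1 against EV (SD 0.040). The share of gene-start counts on chromosome 10 was 4.49%, 4.73% and 4.55% in the EV libraries, 4.41 ± 0.21% in EHF, 4.55 ± 0.11% in CDX1, and 3.36%, 3.03% and 3.66% in EHF+CDX1. On chromosome 16 the EV, EHF and CDX1 lines had 3.38 ± 0.12%, 3.39 ± 0.12% and 3.38 ± 0.06%, and EHF+CDX1 had 2.63 ± 0.31%, and on chromosome 20 it was 1.77 ± 0.10%, 1.86 ± 0.09%, 1.84 ± 0.13% and 2.21 ± 0.12% in the order EV, EHF, CDX1, EHF+CDX1. Chromosome 13 had 2.33 ± 0.07% in EV and 2.63%, 3.90% and 2.65% in EHF+CDX1, where replicate 2 stood apart. Of 23 chromosomes, the EHF+CDX1 libraries all lay above every other library in 6 and below every other library in 5, while EV did so in 0 and 0, EHF in 0 and 1, and CDX1 in 0 and 0.

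Of the 46 members, 26 had a fitted change in EHF+CDX1 against EV on the same side of the median of all gene starts as the median of their chromosome, and 21 did in EHF against EV and in CDX1 against EV. On chromosome 16, with a median of −0.38, GINS2, ORC6 and PLK1 all had fitted values below 0 in EHF+CDX1 against EV (−0.31, −0.22 and −0.60). On chromosome 7, with a median of 0.25, CDK6, MCM7 and RFC2 all lay above 0 (0.44, 0.54 and 0.66). On chromosome 20, with a median of 0.35, E2F1, GINS1 and PCNA lay above 0 and AURKA below it, and on chromosome 10 MCM10 and MKI67 lay below 0 while CDK1 was at 0.27. Members of some other chromosomes lay mostly on the opposite side: on chromosome 12, with a median of 0.15, 1 of 5 was above 0, on chromosome 2, with 0.24, 1 of 3 was, on chromosome 3, with 0.12, 1 of 3 was, and on chromosome 4, with −0.10, CCNA2 and MAD2L1 both were. Within 5 Mb of a member the median of the other gene starts ran from −1.01 (around MKI67, over 28 gene starts) to 0.64, with an SD over members of 0.35, beside 0.17 in EHF against EV and 0.15 in CDX1 against EV. Across the 46 members the log2 fold change was correlated with this neighbour median in EHF+CDX1 against EV, with values of 0.53 by Pearson and 0.53 by Spearman. The same coefficients were 0.31 and 0.25 in EHF against EV, and 0.38 and 0.33 in CDX1 against EV. These describe genes measured in the same libraries, which are not independent of each other. Measured from their neighbours, GINS1 went from 0.76 to 0.38, PLK1 from −0.60 to −0.07, MCM10 from −0.54 to −0.08, POLE from −1.03 to −0.71, RFC3 from 1.39 to 1.03 and E2F1 from 1.50 to 1.01, while MKI67 turned from −0.45 to 0.56 and CCNB1 went from 0.89 to 1.03. The median of the 46 was −0.07 on this scale. The part of the chromosome-wide differences in the members' values was not tested further.

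**Figure D4:**
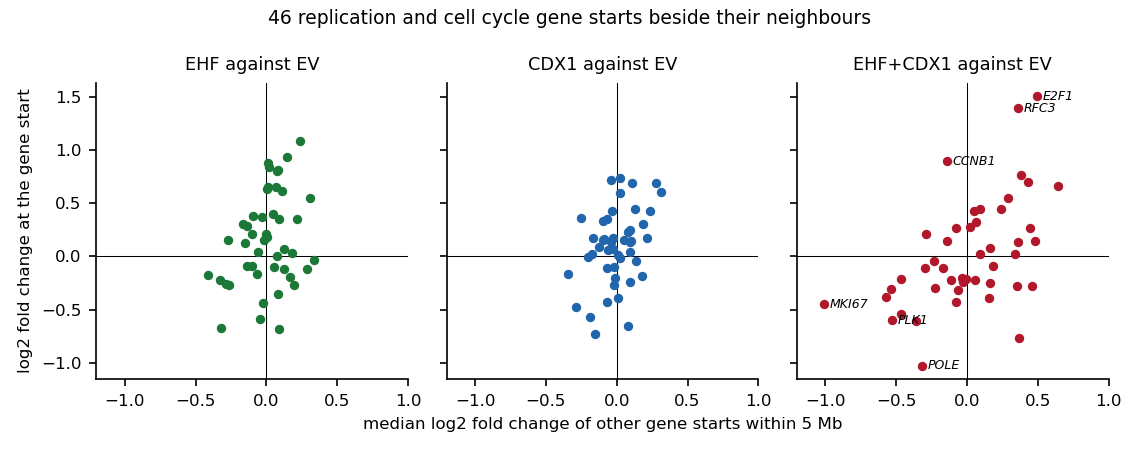
Log2 fold change of each member gene start (vertical) against the median log2 fold change of the other gene starts within 5 Mb (horizontal), with 1 panel for each line carrying a factor against EV and 1 point per member. Neighbour medians span −1.01 to 0.64 in EHF+CDX1 and are narrower in the lines with 1 factor.

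Genes of the same pathways outside the 55 were counted in the same way, beside the 2.95% of all gene starts called in EHF+CDX1 against EV. Of 28 other replication genes 24 were measured and 0 were called in EHF+CDX1 against EV by edgeR (1 higher and 1 lower at an unadjusted p of 0.05), with a median log2 fold change of 0.23. Of 27 other cell cycle genes 22 were measured and 1 was called, with a median of 0.02. This was BUB3, a checkpoint protein that binds kinetochores. It was at 45.4, 78.4 and 50.7 CPM in EV, 49.2, 50.5 and 60.2 CPM in EHF, 72.2, 46.7 and 50.7 CPM in CDX1, and 24.5, 23.2 and 28.5 CPM in EHF+CDX1. All EHF+CDX1 libraries lay below all others, and BUB3 was lower by a log2 fold change of −1.24 ± 0.26 (adjusted p = 0.0019) against EV, −1.08 ± 0.26 (adjusted p = 0.0071) against EHF and −1.16 ± 0.26 (adjusted p = 0.0042) against CDX1. BUB3 lies on chromosome 10 and the gene starts around it had a median of −0.88, which leaves −0.36. The call against EV was kept in 23 of 27 alternative fits, and was lost without EV replicate 2, without EHF+CDX1 replicate 2, without replicate 2 of every line and with library size alone.

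Of 23 repressors and other E2F, RB and MuvB genes 20 were measured and 2 were called higher in EHF+CDX1 against EV, beside a median of 0.15 over the 20. E2F7, an atypical E2F that represses S-phase genes, was at 9.07, 10.6 and 9.51 CPM in EV, 10.4, 26.3 and 23.6 CPM in EHF, 16.9, 26.6 and 16.9 CPM in CDX1, and 20.5, 28.9 and 27.0 CPM in EHF+CDX1. The EV libraries lay below all but 1 of the rest, and the log2 fold change was 1.38 ± 0.35 (adjusted p = 0.0126). Its neighbours within 5 Mb had a median of 0.88, and the call was kept in 19 of 27 alternative fits. It was lost when EV replicate 2 or 3 or EHF+CDX1 replicate 2 was left out, without any 1 replicate number in every line, with DESeq2 and with library size alone. TFDP2, a partner that the typical E2F proteins need to bind DNA, was at 4.54, 3.02 and 7.93 CPM in EV, 7.77, 6.90 and 6.50 CPM in EHF, 6.57, 9.53 and 10.9 CPM in CDX1, and 15.4, 10.9 and 15.7 CPM in EHF+CDX1. Its log2 fold change was 1.52 ± 0.46 with an adjusted p of 0.049, and it was called in 6 of 27 alternative fits. POLE4, a small subunit of the leading-strand polymerase, was called only in EHF+CDX1 against CDX1 (2.33 ± 0.59, adjusted p = 0.013). It was at 2.81, 1.51 and 1.21 CPM in CDX1 and 9.13, 9.48 and 9.74 CPM in EHF+CDX1, with 5.67, 6.03 and 1.59 CPM in EV, and was called in 18 of 27 alternative fits. That call was lost without CDX1 replicate 2, CDX1 replicate 3 or EHF+CDX1 replicate 2, without any 1 replicate number in every line, with DESeq2, with limma-trend and with library size alone.

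The promoters of the members differ in their words from those of other open genes. RefSeq (GRCh38.p14) windows of 300 bases, from 250 before to 50 after a start, were found for 46 of the 55 members as 60 windows. An E2F word, on either strand, was in 31.7% of these, against 5.14% of 12796 windows of genes with a region and 3.31% of all 35116 windows. CCAAT was in 65.0%, against 38.0% and 34.6%, and a CHR word in 23.3%, against 12.3% and 16.4%. The ETS word CCGGAAG, of the kind that EHF and its relatives bind, was in 15.0%, against 17.2% and 10.3%. The CDX words TTTATG and TTTATT were in 13.3%, against 15.2% and 24.3%. The GC box GGGCGG was in 76.7%, against 65.3% and 45.0%, and the median GC content was 64.3%, against 64.0% and 58.7%. A gene can have several windows. Counted per gene the GC box was in 76.1% of members and 75.7% of genes with a region. The 60 windows include members without a region. In the 54 windows of members with a region the E2F, CCAAT and CHR shares were 29.6%, 72.2% and 24.1%. The ETS, CDX and GC box shares there were 14.8%, 13.0% and 77.8%. Words can overlap, as in the MKI67 and POLE stretches above, and a match is a letter match and not a site that was observed to be bound.

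The 15 measured members with an E2F word were CDC25A, CDC6, CDK1, E2F1, GINS1, GINS2, MCM2, MCM3, MCM6, MCM7, PCNA, POLA2, POLE, RFC3 and TYMS. The 11 with a CHR word were BUB1, CCNB2, CDC20, CDC25C, CDK1, MAD2L1, MCM6, MKI67, PLK1, RRM1 and TOP2A, so that CDK1, the mitotic kinase, and MCM6, a helicase subunit, held both. AURKA, CCNE2, CDK2, GINS4, MCM4 and MCM5 were measured but had no promoter window, so they were not searched and are in neither set below. In EHF+CDX1 against EV the median log2 fold change was 0.15 in the 15 measured members with an E2F word and −0.09 in the 25 without. It was −0.11 in 11 with a CHR word and 0.14 in 29 without, and −0.11 in 31 with CCAAT and 0.26 in 9 without. The 6 with the ETS word had 0.05, beside −0.07 in 34 without, and the 7 with a CDX word 0.26, beside −0.05 in 33 without. The lines with 1 factor gave other contrasts. In EHF against EV the medians with and without the word were 0.51 and 0.10 for ETS, 0.15 and 0.18 for CDX, and 0.04 and 0.21 for E2F. In CDX1 against EV they were 0.21 and 0.08 for ETS, 0.01 and 0.14 for CDX, and 0.07 and 0.15 for E2F. No test was made of these medians.

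**Figure D5:**
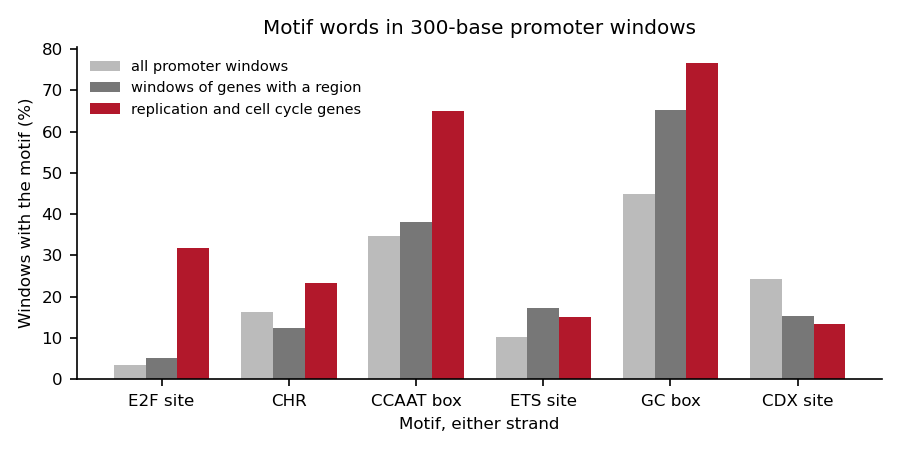
Percent of 300-base promoter windows (vertical, from 0) that hold each word on either strand, for the members, for genes with a region and for all genes. By windows the members exceed both backgrounds for E2F, CHR, CCAAT and GC box words and not for the ETS and CDX words. Counted per gene, the GC box share was 76.1% in the members and 75.7% in genes with a region.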

How the data were processed

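ATAC-seq was measured in 12 HCT116 libraries, 3 for each of 4 lines, grouped by the sample titles. One title abbreviation (E-C) was taken to mean EHF with CDX1, following the series' description. The authors mapped reads to GRCh38/hg38 with Subread 2.0.0, retained only unique alignments, found peaks with HOMER 4.7 and counted reads per merged region with featureCounts 2.0.0. They then normalised the log2 CPM of the regions by quantiles and weighted them with voom of limma. Duplicate removal and read shifting are not given in the sources used here. The deposited table holds raw whole-number counts for 30170 regions. The authors deposited, in addition, log2 CPM per library for 27827 regions, which was used only for the limma-trend alternative on regions.

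Regions were assigned to a gene when they lay within 1 kb of any GENCODE v44 transcript start, and counts were summed per gene and library. Gene starts (13890) or regions (30154) reaching 3 CPM in any 1 library were kept, scaled by TMM and tested with edgeR 4.0.16 in R 4.3.3 (robust quasi-likelihood F-test, all 12 libraries in 1 fit, Benjamini-Hochberg adjustment over all features, threshold 0.05). Errors of log2 fold changes are standard errors, taken as the absolute log2 fold change divided by the square root of the F statistic. The 95% intervals are t intervals built on these errors and are approximate. Alternatives used limma 3.58.1, DESeq2 1.42.0, other scalings and filters, the replicate number as a block, a 500 bp window, gene 5′ ends only, and omission of libraries or of regions over EHF or CDX1 exons or matching mitochondrial DNA (BLAST 2.17.0, at least 40 bp and 80% identity). Scripts were tested on simulated data. Counting error of a gene start is set by its own counts, with a median over members of 6 to 35.5 depending on the library. Only the sum over all members rests on 352 to 2186 counts per library. Amplified reads are not independent molecules.

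The members and gene lists were chosen with earlier results of these data known. Genes described singly were, in each of 8 role groups, the member with the highest mean CPM, the 2 with the smallest p in EHF+CDX1 against EV, and any member called. Genes outside the list were named where called or where a result turned on them. The chromosome and neighbour references (other gene starts of the chromosome, or within 5 Mb) were added after the values were seen.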

Additional observations from a re-analysis of the deposited data

How the results depend on the processing

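The count of 0 called member gene starts held in most alternatives. It was 0 to 1 in EHF+CDX1 against EV when libraries were left out (GINS1, without replicate 1 of every line), and in EHF+CDX1 against EHF it was 2 with voom and quantile normalisation (CDK2, PLK1) and 1 with gene 5′ ends only (CDC25C). The 1 called member region in EHF+CDX1 against EHF became 0 with library size alone, DESeq2, limma-trend and filterByExpr, 6 with voom, and 0 to 2 when libraries were left out. Against CDX1 the count of 0 regions became 1 with voom and 0 to 1 when libraries were left out. With the replicate block the counts of regions were 1 in EHF+CDX1 against EV (MCM7), 3 against EHF and 1 against CDX1, and no call of a gene start changed. No label says what the replicate number marks, but the sample numbers in the titles run through all lines of 1 replicate number before the next begins. Same-numbered libraries of different lines correlated at −0.0088 to 0.308 over 18 pairs, of which 5 were over 0.1, and differently numbered ones at no more than 0.064. On average 11 of 12 libraries correlated best with their own number. The order in the titles and these correlations are a hint of pairing, which no stated design settles.

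The member median minus that of all gene starts was −0.13 in EHF+CDX1 against EV, with a range of −0.18 to 0.080 when libraries were left out and −0.0063 relative to the chromosome median. The range was −0.0086 to 0.18 in CDX1 against EV, −0.27 to −0.038 in EHF+CDX1 against EHF and −0.18 to 0.0026 in EHF+CDX1 against CDX1, where filterByExpr gave −0.019. The cause of these shifts was not tested. Library size alone moved the median of all gene starts to −0.45 in EHF against EV, −0.63 in CDX1 against EV and 0.13 in EHF+CDX1 against EV.

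Among fitted changes in EHF+CDX1 against EV that were not called, some turned sign. Leaving out libraries gave −0.022 to 0.82 for PCNA, −0.32 to 0.34 for RRM2, −0.12 to 0.68 for TK1, −0.70 to 0.15 for RRM1, −0.17 to 0.23 for CCNE2 and −0.85 to 0.30 for MKI67. With limma-trend RRM2 was −0.050 and RRM1 0.051. With gene 5′ ends only RRM2 was −0.16 and CCNE2 −0.21. Relative to the chromosome median ORC6 was 0.17, PCNA −0.028 and RRM2 −0.22. Relative to neighbouring gene starts ORC6 was 0.25, MCM4 0.18, RRM2 −0.32, CCNE2 −0.073 and MKI67 0.56.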
